A study of Mus musculus with 2 samples.

Results

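Levels of 8 genes that edit, bind or unwind double-stranded RNA were measured in Drosha knockout mouse embryonic stem (ES) cells. The genes were the adenosine deaminases Adar and Adarb1, the DZF domain genes Ilf2, Zfr and Strbp, the Staufen genes Stau1 and Stau2 and the helicase gene Dhx9. They were taken by symbol, and each matched 1 Ensembl gene ID in both count files, so that 8 of 43629 counted genes are described. ES cells are pluripotent cells derived from the blastocyst. Drosha is the nuclear ribonuclease that cuts microRNA hairpins out of their primary transcripts. There was 1 group: 2 libraries, A and B, of poly-A RNA from Drosha knockout ES cells of 129/Ola strain background, grown in serum plus LIF without treatment and labelled passage 7. Numbers in the titles set the cells of A and B apart, but their source names do not, so whether they are separate lines or cultures is not settled. Any spread between them may be technical. Libraries of another genotype were not analysed here, so the values are levels in knockout cells and no change from wild-type cells was measured.

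Proteins that bind double-stranded RNA recognise its shape more than its sequence, most of them through a small fold called the double-stranded RNA binding domain. Adenosine deaminases acting on RNA convert adenosine to inosine inside such duplexes (A-to-I editing), and ADAR1, the product of Adar, keeps the cell's own duplex RNA from setting off innate sensors. NF45, the product of Ilf2, forms complexes with other proteins through its DZF domain, and Zfr and Strbp carry the same domain. Staufen proteins bind duplexes in mRNAs and act in their transport, translation and decay, and the helicase DHX9 unwinds RNA duplexes and related structures. Microprocessor, the complex of Drosha and Dgcr8, itself acts on hairpin RNA. Editing was not measured: the files hold reads per gene, so neither edited bases nor the long and short ADAR1 isoforms could be told apart.

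The libraries held 29264632 (A) and 42322129 (B) counts, of which 0.163% in each fell on gene IDs without a match in the annotation. A count of 0 allows up to 0.102 CPM in A and 0.0711 CPM in B (3 counts; CPM is the read count relative to the scaled library size). Drosha had 4865 and 7023 reads, which over a whole gene does not check the knockout. All 8 ES cell markers examined reached 1 CPM in both libraries, with a summed level of 6719 CPM in A and 6821 in B. By the exact binomial test described further on, 2 of the 8 were called higher in B, Tdgf1 (log2 ratio 0.051) and Dppa5a (0.071). By that test 4 of the 8 had an unadjusted p under 0.05. Of all genes 2.29% were called and 12.4% had an unadjusted p under 0.05. All 8 markers had over 800 reads over both libraries, and of genes with at least that many the shares were 4.06% and 18.1%. The neural markers, relevant because Adarb1 and Stau2 are known for brain expression, summed to 136 and 138 CPM, and 7 of 8 reached 1 CPM in both libraries. Tubb3 alone made up 75.9 ± 1.48 CPM (SD, n = 2) of these sums. Nes, Neurod1 and Map2 were above 10 CPM in both libraries. Rbfox3, Syp and Pax6 lay between 1 and 3 CPM in both, and Gfap was below 1 CPM. Of the male germ cell markers, relevant to Strbp, the spermatid genes Prm1, Tnp1 and Acrv1 had 0 reads, while Sycp3 had 1405 and 1895. Feeder fibroblast markers summed to 61.4 and 56.1 CPM, of which Thy1 made up 42.9 and 43.7. Of the 7 tested, Col1a2, Col3a1, Dcn and Postn were called lower in B by the same exact binomial test, against 0.989% of all tested genes. Each had at most 51 reads in either library. The median log2 ratio of these 7 was -1.60. The part of any other cell type in the levels below was not tested.

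The start regions of 4 of the genes are shown because each has a single start in the RefSeq table for GRCm38.p6 and because together they hold the 3 highest levels and the lowest. Each line runs 5′ to 3′ from 250 bases before the RefSeq start to the last base before the first GENCODE exon or the RefSeq start, whichever came first. Capitals mark letters of a searched motif on either strand. The motifs were the CCAAT box (CCAAT), the GC box (GGGCGG), the ETS site (CCGGAAGT), the TATA box (TATAAA), the NRF1 site and the core of the interferon response element.
Dhx9 (chr1:153487661-153487910, minus strand): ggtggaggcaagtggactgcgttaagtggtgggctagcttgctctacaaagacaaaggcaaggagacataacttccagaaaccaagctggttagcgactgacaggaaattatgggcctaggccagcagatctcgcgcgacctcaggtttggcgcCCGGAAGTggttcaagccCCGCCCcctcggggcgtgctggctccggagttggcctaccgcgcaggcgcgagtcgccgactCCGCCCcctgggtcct
Ilf2 (chr3:90475951-90476125, plus strand): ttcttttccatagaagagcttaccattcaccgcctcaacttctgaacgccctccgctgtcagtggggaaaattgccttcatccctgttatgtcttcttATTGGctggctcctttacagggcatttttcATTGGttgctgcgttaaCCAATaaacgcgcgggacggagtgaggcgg
Zfr (chr15:12117601-12117830, plus strand): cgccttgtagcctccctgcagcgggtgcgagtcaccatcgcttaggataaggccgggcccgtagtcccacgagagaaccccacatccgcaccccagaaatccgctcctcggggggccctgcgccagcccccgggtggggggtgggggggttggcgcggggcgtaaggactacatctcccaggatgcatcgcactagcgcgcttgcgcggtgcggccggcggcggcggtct
Adarb1 (chr10:77418274-77418523, minus strand): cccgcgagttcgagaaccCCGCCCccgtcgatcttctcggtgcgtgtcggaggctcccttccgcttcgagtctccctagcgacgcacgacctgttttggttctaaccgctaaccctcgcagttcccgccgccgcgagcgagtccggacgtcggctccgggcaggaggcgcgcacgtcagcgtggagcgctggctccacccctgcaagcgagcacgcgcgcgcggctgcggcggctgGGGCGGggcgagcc

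The Ilf2 region held 3 CCAAT boxes and no GC box. The Dhx9 region held 1 ETS site and 2 GC boxes, the Adarb1 region 2 GC boxes, and the Zfr region held no searched motif. In all 32851 windows of 250 bases in the table, 33.8% held a CCAAT box, 32.7% a GC box and 2.88% an ETS site. No match overlapped another in the printed regions. Over all 11 windows of the 7 genes in the table, which has no Stau2 entry, 3 held a CCAAT box, 5 a GC box and 1 an ETS site. None held the TATA box, found in 12.4% of all windows, the interferon response core, found in 2.98%, or the NRF1 site, found in 0.782%. The ratio of observed to expected CpG was above 0.6 in 8 of 11 windows (72.7%) against 34.0% of all windows. It was highest for Adarb1 (1.24), the gene with the lowest level, against 0.752 for Dhx9, the gene with the highest. Adar, Stau1 and Strbp each gave more than 1 window. The set of all windows was not limited to genes expressed in these cells, so the CpG share is not shown to be particular to these genes. The motif matches describe letters in the reference and do not show that a factor bound there.

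All 8 genes were expressed. Each reached 1 CPM in both libraries, against 12458 of the 16031 protein-coding genes with a read in both. To compare genes, reads were divided by exon length and scaled to the same sum in each library (TPM, the length-normalised level). The order was then Dhx9, Ilf2, Zfr, Stau1, Adar, Strbp, Stau2 and Adarb1, from 160 to 3.48 TPM, and it was the same in A and in B. For every neighbouring pair in that order the library values did not overlap, and neither did the 95% exact Poisson intervals within either library, which cover counting error only. The median of the 8 was 23.3 TPM, against 9.46 TPM for protein-coding genes with a read in both libraries. Poly-A RNA from many cells does not show whether a low gene was low in all cells or present in few.

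The length used for a gene decides some of these distances. The main values divide by the union of all annotated exons, which counts rarely used exons and retained introns in full. The longest principal transcript (the form the annotation takes as the main protein-coding one) was 2027 bases long for Ilf2, against 8580 for the union. For Adar these lengths were 3753 and 8118 bases, and for Strbp 16348 and 18616. Under the principal transcript length, chosen after the data were seen, Dhx9 had 248 TPM in A and 250.2 in B, Ilf2 220 and 224, and Zfr 59.4 and 61.7. The order of the 8 was the same under the union, the longest transcript and the longest principal transcript. Stau1 and Adar could not be put in order once bases overlapped by genes of the opposite strand were left out of the length. All reads were kept in that step, as described at the end.

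**Figure D1:**
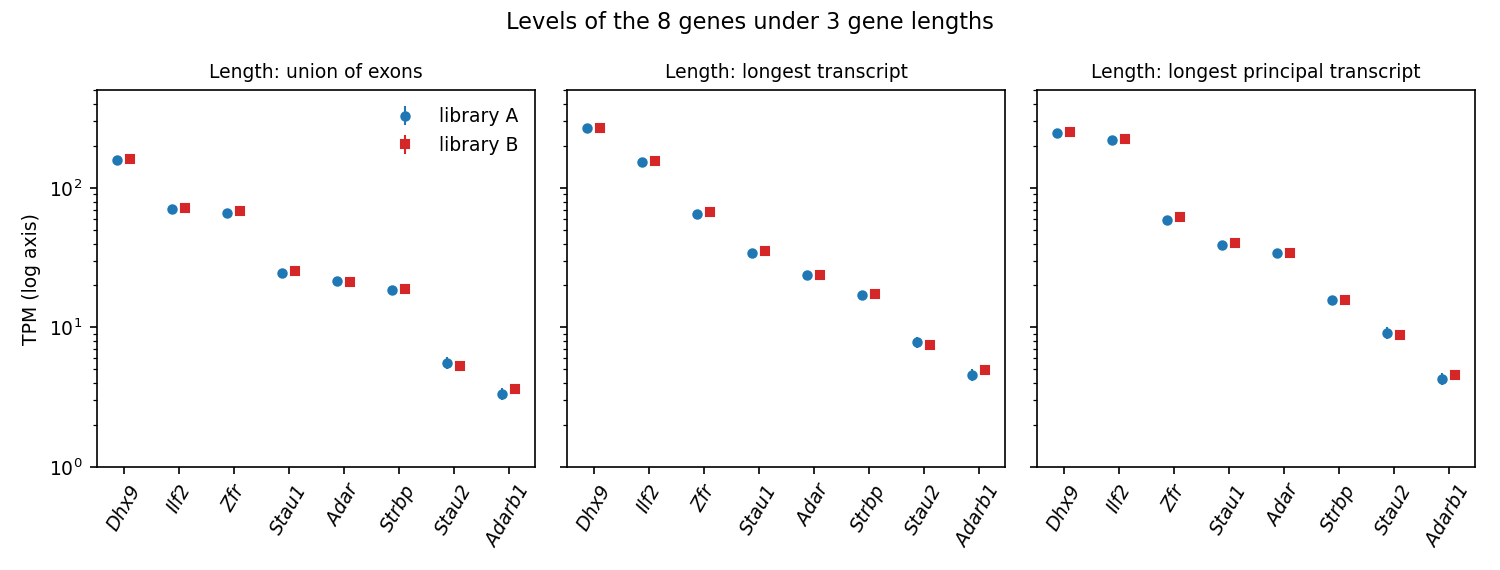
TPM (log axis) of the 8 genes in library A (circles) and library B (squares) under the 3 lengths; bars are 95% exact Poisson intervals of the counts and are mostly shorter than the symbols. The order of the genes is the same in the 3 panels, and Ilf2 moves from 70.9 to 222 TPM between the left and right panels.

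Of the editing enzymes, Adar was well expressed and Adarb1 low. Adar (ENSMUSG00000027951, chromosome 3, 89715022 to 89753446, plus strand, GRCm38), the widely expressed deaminase, was counted with 1904 reads in A and 2744 in B (64.9 and 65.0 CPM). Adarb1 (ENSMUSG00000020262, chromosome 10, 77290726 to 77418270, minus strand), whose product ADAR2 edits the glutamate receptor mRNA Gria2 in neurons, had 413 and 646 reads, or 14.1 and 15.3 CPM. Per length, Adar was at 21.5 TPM in A and 21.2 in B, and Adarb1 at 3.35 and 3.60. Both libraries therefore showed more Adar, by 6.40 times in A and 5.90 times in B (6.15 ± 0.356, SD, n = 2). The ratio was 4.99 with the longest transcript and 7.73 with the principal transcript. Among protein-coding genes with a read in both libraries, Adar lay at the 66.0th percentile of TPM and Adarb1 at the 35.7th.

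The other genes of the deaminase family spanned a wide range. Adarb2, a brain gene whose product has no known editing activity, had 0 reads in both libraries. Adad1, a testis gene with a deaminase-like domain, had 8 and 23 reads (0.273 and 0.545 CPM). Its relative Adad2, also known from testis and singled out after its values were seen, had 395 and 504 reads (13.5 and 11.9 CPM), or 17.6 ± 1.65 TPM (SD, n = 2) with the exon union. With the principal transcript Adad2 had 13.9 TPM in A and 12.2 in B, and Adar 34.3 and 34.0. The tRNA deaminase gene Adat2 had 35.3 ± 0.501 TPM, and Adat1 14.8 ± 1.33. In this list 5 of the 7 matched genes reached 1 CPM in both libraries. Adat3 was listed too and had no match.

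Genes whose mRNAs are reported to be recoded by editing ranged widely. Of 19 such genes, 11 reached 1 CPM in both libraries, led with the exon union by the actin crosslinker Flna (104 TPM in A and 105 in B), the antizyme inhibitor Azin1 (84.7 TPM in A and 88.1 in B) and the coatomer subunit Copa (65.2 and 66.4). With the principal transcript Copa was the highest (99.3 TPM), above Flna (86.1) and Azin1 (82.1). The 7 below 1 CPM in both are best known from neurons, and Gria3 was below in A only. The glutamate receptor gene Gria4 was just above, at 1.12 CPM in A and 1.07 in B. Gria2 had 1 read in A and 0 in B, Grik2 had 2 and 1, and Kcna1 had 0 and 2. The kainate receptor gene Grik1 and the serotonin receptor gene Htr2c had 0 in both. Gabra3 had 9 and 13 reads, and the vesicle gene Cadps had 20 and 35. These counts give the amount of RNA and not whether it was edited.

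The DZF genes Ilf2 and Zfr were well expressed, and Strbp was lower per length. With the exon union, Ilf2 lay at the 87.6th percentile of protein-coding genes with a read in both libraries. Zfr lay at the 86.9th and Strbp at the 63.3rd. With the principal transcript Strbp lay at the 57.3rd in A and the 57.8th in B. Ilf2 (ENSMUSG00000001016, chromosome 3, 90476126 to 90488379, plus strand) gave 6587 reads in A and 9774 in B (225 and 232 CPM). Zfr (ENSMUSG00000022201, chromosome 15, 12117831 to 12185683, plus strand), a zinc finger protein known to act in splicing, had 4263 and 6435 reads, or 145 and 152 CPM. Strbp (ENSMUSG00000026915, chromosome 2, 37483228 to 37703859, minus strand), first known as a spermatid RNA-binding protein, had 3785 and 5569 reads, or 129 and 132 CPM. In CPM, Zfr and Strbp were close, but the exon union of Strbp was 18616 bases long against 5911 for Zfr. Per length, Ilf2 had 70.3 and 71.6 TPM in A and B, Zfr 66.0 and 68.4, and Strbp 18.6 and 18.8. Zfr was thus 3.59 ± 0.0651 times Strbp (SD, n = 2), and between 3.57 and 3.85 times under every length tried. These lengths differ little, since the longest and the principal transcript were equally long in Zfr (4850 bases) and in Strbp (16348 bases). No shorter form of Strbp was tried, so the ratio under such a form is not known.

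How far Ilf2 stood above Zfr depended on the length. The ratio was 1.06 ± 0.0128 (SD, n = 2) with the exon union, 2.35 with the longest transcript and 3.67 with the principal transcript. Zfr2, the close relative of Zfr, lay around 1 CPM, with 26 and 43 reads (0.886 and 1.02 CPM). Ilf2 was 3.78 times Strbp in A and 3.81 times in B with the exon union, and 14.0 and 14.2 times with the principal transcript. Of these 4 DZF genes, 3 reached 1 CPM in both libraries.

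Stau1 was well above Stau2. Stau1 (ENSMUSG00000039536, chromosome 2, 166947549 to 166996299, minus strand), the widely expressed Staufen gene, reached 1640 reads in A and 2471 in B (55.9 and 58.5 CPM). Stau2 (ENSMUSG00000025920, chromosome 1, 16228674 to 16520112, minus strand), best known from neurons, had 412 and 572 reads, or 14.0 and 13.5 CPM. Per length the levels were 24.7 and 25.6 TPM for Stau1 and 5.59 and 5.33 for Stau2. The ratio of Stau1 to Stau2 was 4.43 in A and 4.81 in B (4.62 ± 0.267, SD, n = 2), and 4.22 and 4.58 with the principal transcript. In CPM, Stau2 and Adarb1 were alike, while in TPM Stau2 was 1.67 times Adarb1 in A and 1.48 times in B.

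Staufen-mediated decay shares the helicase Upf1 with nonsense-mediated decay. All 7 factors of these routes examined reached 1 CPM in A and in B. With the exon union Upf1 had 82.2 ± 3.12 TPM (SD, n = 2), Smg5 69.9 ± 0.330 and Upf3b 40.7 ± 0.247, each above Stau1. Upf2 was also above Stau1 (25.2 TPM), while Upf3a (19.1), Smg1 (20.8) and Smg6 (20.9) were below it. With the principal transcript Smg5 (80.9 TPM) was above Upf1 (60.8). Under that length Upf2 (29.7), Smg1 (23.7) and Smg6 (22.3) were below Stau1 (39.5), and Upf3a was above Stau1 in A only. By the exact binomial test 0 of the 7 factors were called different between the libraries, against 2.29% of all genes. By that test 2 of the 7 had an unadjusted p under 0.05, against 12.4% of all genes. All 7 had over 800 reads over both libraries, and of genes with at least that many the shares were 4.06% and 18.1%.

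Dhx9 had the highest level of the 8. Dhx9 (ENSMUSG00000042699, chromosome 1, 153455758 to 153487660, minus strand) was counted with 16741 reads in A and 24539 in B (571 and 581 CPM). That was 159.6 and 160.5 TPM, at the 95.3rd percentile of protein-coding genes with a read in both libraries. Dhx9 was 2.27 times Ilf2 in A and 2.24 times in B with the exon union, and 1.13 and 1.12 times with the principal transcript.

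Of 15 other genes with a double-stranded RNA binding domain, 13 reached 1 CPM in both libraries, and the exceptions were Adarb2 and Adad1. With the exon union their median was 23.4 TPM, against 23.3 TPM for the 8 genes. With the principal transcript these medians were 21.8 and 36.8 TPM. Among these 15, the highest with the exon union were the Drosha partner Dgcr8 (83.8 ± 0.717 TPM, SD, n = 2), Drosha itself (74.7 ± 0.488) and the mitochondrial ribosomal protein gene Mrpl44 (63.1 ± 6.14). With the principal transcript Tarbp2 (102 TPM), a partner of Dicer, and Son (73.9), a splicing factor gene, were above Drosha (71.7) and Mrpl44 (53.9). No test of a difference between the lists was made, and Adarb2, Adad1 and Adad2 stand in more than 1 list. The labels place the knockout at Drosha, and reads over the whole gene put it above Zfr.

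**Figure D2:**
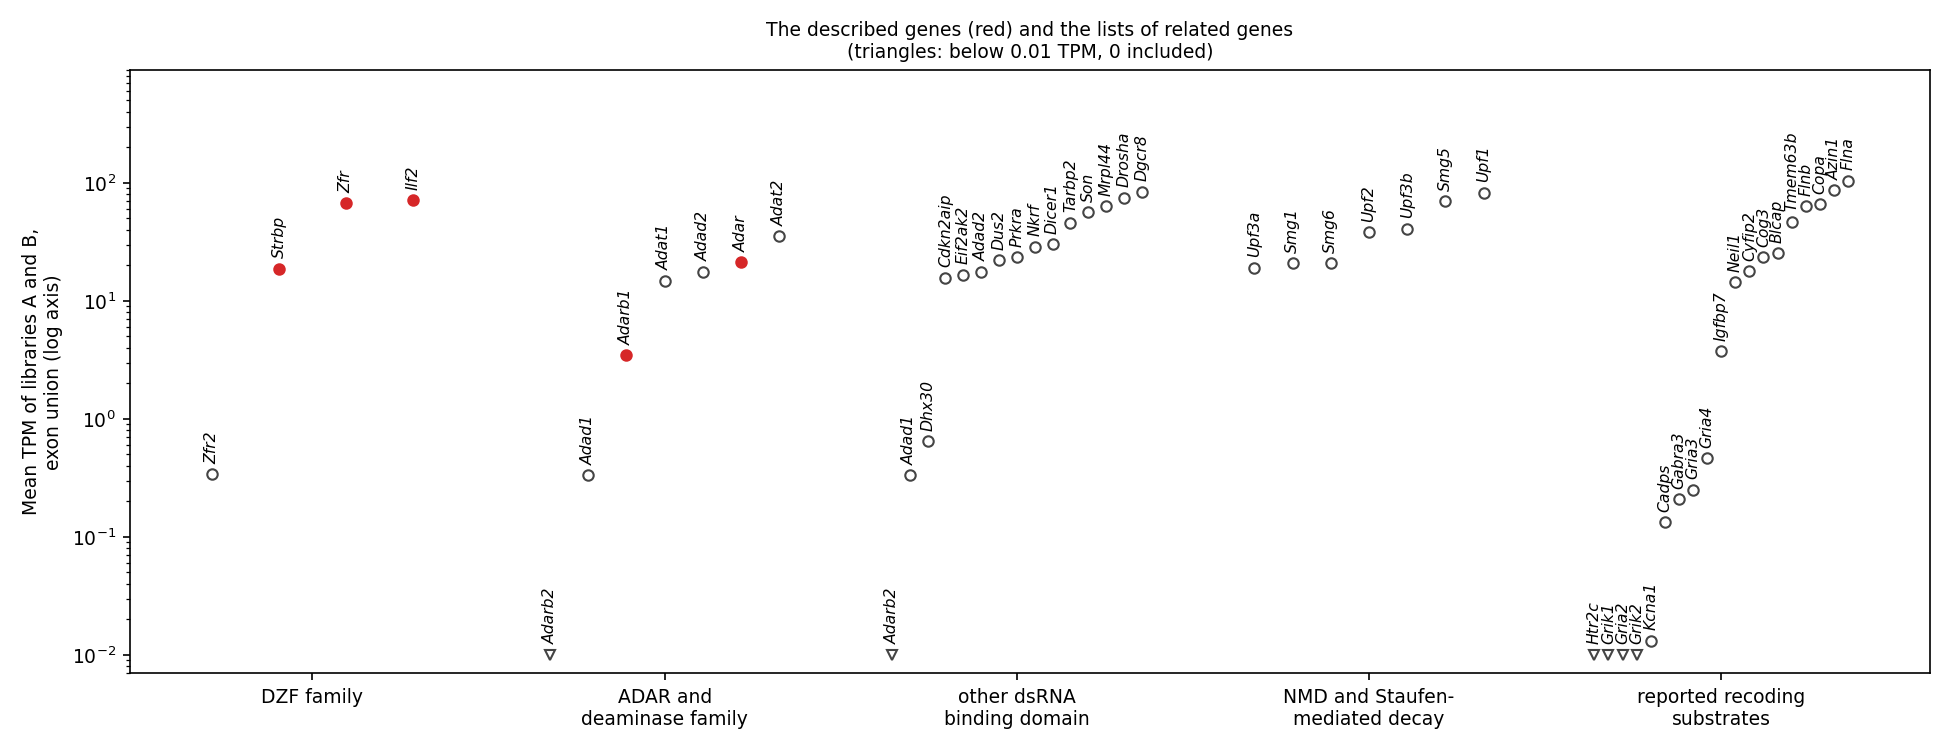
Mean TPM of both libraries with the exon union as length (log axis) for the 5 lists of related genes, with the described genes in red; triangles are genes below 0.01 TPM. Zfr2, Adad1, Adarb2 and Dhx30 lie below 1 TPM, and the recoding substrates with fewest reads lie there too, while Flna, Azin1 and Copa lie above 60.

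The 8 genes differed between A and B by a log2 ratio of at most 0.12 in size. For each of 18198 genes with 10 reads or more in total, the share of reads from B was set against the share of the scaled library sizes (exact binomial, two-sided, Benjamini-Hochberg adjusted over all of these genes, threshold 0.05). The test compares 2 libraries of 1 genotype and weighs counting error only. By this rule 0 of 8 genes were called, while 2.29% of all tested genes were (417). None of the 8 was therefore among the 1.3% called higher in B, the 0.989% called lower in B or the 0.0879% that were called and also 2-fold or more apart. At an unadjusted p under 0.05 there was 1 of the 8 (Zfr), against 12.4% of all genes, a count that was 3 with TMM over all genes or with DESeq2 size factors and 0 with the GC trend removed. All 8 genes had over 800 reads. Of the 9447 genes with at least that many, 4.06% were called and 18.1% had an unadjusted exact binomial p under 0.05. The median size of the log2 ratio was 0.048 for the 8 genes and 0.045 for those 9447. At an assumed coefficient of variation of 0.1, edgeR's exact test called 0 of the 8 and left 0 at an unadjusted p under 0.05. Of all 18198 tested genes that test called 1 and left 215 at an unadjusted p under 0.05, so 0 of 8 says little about these genes. The median log2 ratio of B over A was 0.038 for the 8 genes and -0.00084 for all tested genes. Among the related lists the same test called 0 of 4 DZF genes, 0 of 6 deaminase family genes, 0 of 14 recoding substrates and 1 of 14 other genes with the RNA binding domain (Mrpl44). At an unadjusted p under 0.05 these counts were 1, 1, 2 and 2. The first 2 lists are not separate from the 8 genes. Ilf2, Zfr and Strbp are among the 4 DZF genes, and Adar and Adarb1 among the 6 deaminase family genes. The 1 DZF gene at an unadjusted exact binomial p under 0.05 was again Zfr.

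Zfr was 4.90% higher in B (log2 ratio 0.069, 95% interval 0.013 to 0.13), with an exact binomial adjusted p of 0.23 that lay between 0.157 and 1 over the alternatives. Adarb1 had the largest ratio, 0.12, but also wide limits (-0.060 to 0.30; adjusted exact binomial p = 0.673). Stau2 was the one gene lower in B, with a ratio of -0.052 (-0.24 to 0.13). The interval of Adar ran from -0.083 to 0.087 around a ratio of 0.0021. For Dhx9, with the most reads, the ratio was 0.027 and the interval -0.0017 to 0.055. Ilf2 (0.044), Stau1 (0.066) and Strbp (0.032) were also higher in B, by 2.25 to 4.70%. In all, 7 of 8 genes were higher in B against 9036 of 18198 tested genes, a count that was 6 of 8 with total counts as scaling and 6 of 8 after the trend of the ratio with GC content was removed. The GC content of the longest transcript lay between 41.5 and 44.6% in Zfr, Ilf2, Stau2, Dhx9 and Strbp, and the median ratio of all genes ran from 0.046 in the lowest of 20 GC bins to -0.083 in the highest. With that trend removed the ratio was 0.040 for Zfr, 0.015 for Ilf2, 0.00027 for Dhx9 and -0.0030 for Strbp, while Stau2 was at -0.087, Adarb1 at 0.14, Stau1 at 0.064 and Adar at 0.018.

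**Figure D3:**
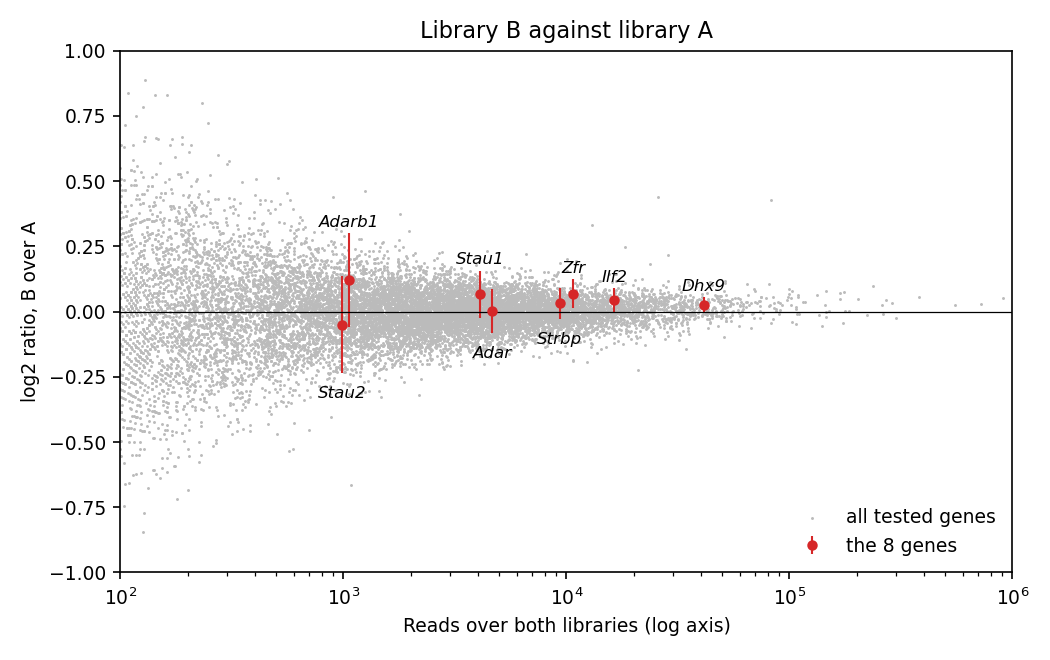
Log2 ratio of library B over library A against the reads over both libraries (log axis, from 100 reads; genes beyond a ratio of 1 in either direction are not drawn), with all tested genes in grey and the 8 genes in red with 95% exact binomial intervals. The intervals of 7 genes include 0, that of Zfr does not, and the widest belong to Stau2 and Adarb1, which have the fewest reads.

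Sequence shared between genes was examined because the treatment of reads with several matches in the counting is unknown. The coding sequences of Adar and Adarb1 were 60.4% identical over 2015 aligned bases, those of Stau1 and Stau2 64.4% over 1302 and those of Zfr and Strbp 63.7% over 1055. Adarb1 and Adarb2 were the closest pair examined, at 66.3% over 2033 bases. The longest run of identical bases was 13 between Adar and Adarb1, 12 between Stau1 and Stau2, 20 between Zfr and Strbp and 11 between Ilf2 and Zfr. The only stretch of 50 bases shared by transcripts of any of the 8 was 1 window common to Ilf2 and Dhx9. Zfr, Stau1 and Stau2 shared no window of 50 bases with any other gene. Of the windows of Adarb1 0.280% occurred in transcripts of other genes, of those of Dhx9 0.356% and of those of Strbp 0.827%. The shares were 6.83% for Ilf2 and 14.4% for Adar. All these shares count both strands and include genes that overlap at the same place, such as Chrnb2 for Adar, described below. Outside such neighbours, 0 genes matched Adar at 90% identity over 100 bases or more. Genes elsewhere with a match of at least 90% identity over 100 bases or more, covering 50% or more of their own length, held at most 24 reads in A and 38 in B, for Ilf2.

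Overlap with neighbours on the opposite strand touched 3 of the genes. Exons of Adar and of Chrnb2, a nicotinic receptor subunit gene, overlapped by 1365 bases, or 16.8% of the exon union of Adar. Chrnb2 had 63 and 120 reads. Ilf2 overlapped Snapin, a gene of vesicle trafficking, by 354 bases (4.13%), and Snapin had 1352 and 1884 reads. Strbp overlapped Rabgap1 by 118 bases (0.634%). The library protocol is labelled reverse-stranded. With the strand setting of featureCounts not given in the sources used here, these 3 levels are uncertain by the reads of the overlaps. A further choice, made after the data were seen, left the overlapped bases out of the length. All reads were kept, so this could only raise these 3 levels. Adar then had 25.7 TPM and Stau1 25.2. Their order then differed between A and B and their intervals overlapped, while the other 6 genes held their places.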

How the data were processed

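Each library has 1 deposited file of whole-number read counts by Ensembl gene ID, made by the authors and not normalised. The submitters' processing notes name STAR 2.4.2a, featureCounts 1.4.5-p1 and mm10 without saying what each did; Trizol RNA and the Illumina TruSeq RNA kit are named per the labels' protocols. Annotation release, strand setting and treatment of multiply matching reads: not given in the sources used here. Symbols, positions and lengths came from GENCODE M21 on GRCm38, the build of mm10, and 97.5% of IDs matched.

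Counts were scaled by TMM over genes with at least 10 reads (edgeR 4.0.16, R 4.3.3). TPM used the union of exons. Sequences were compared with BLAST+ 2.17.0 and Biopython 1.88, and tests and figures used Python 3.11.15, scipy 1.17.1, pandas 2.3.3, numpy 2.4.6 and matplotlib 3.10.9. edgeR's quasi-likelihood test could not be fitted to 1 group of 2 libraries, so the reads were compared by the exact binomial test. On simulated Poisson counts of this comparison (18189 genes, 200 changed among genes with at least 900 reads), it recovered 100% of 1.5-fold changes, and 80% of 1.2-fold changes in a run of 18218 genes. Values are means ± SD of 2 libraries.

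The members and lists were chosen with earlier results of these data known. By rule, named genes were the 8, the 3 highest of each list, those below 1 CPM in both libraries, called genes, and Adarb2 and Zfr2. Of the marker lists only those bearing on the libraries are named. Dhx30, Eif2ak2, Gria3, Gria4, Tarbp2, Son, Thy1 and Tubb3 were named after their values were seen, and Adat1 was named outside the rule. Upf2, Upf3a, Smg1, Smg6 and the other neural markers apart from Gfap were also named after their values were seen. Adad2 was among the 3 highest of its list with the exon union but was also singled out after its values were seen. Some genes of the lists are not reported here and were left out of the list counts. Protein sequences were not used here.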

Additional observations from a re-analysis of the deposited data

How the results depend on the processing

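No paired analysis was possible because the libraries belong to 1 group. The count of 0 called genes among the 8 held under every alternative run: total counts, DESeq2 1.42.0 size factors, TMM over all genes, totals without mitochondrial genes, filters of 1 and 50 reads, removal of the GC trend and edgeR's exact test. Of all genes 417 were called, 144 with the GC trend removed and 1 with edgeR's exact test at an assumed coefficient of variation of 0.1. Other scalings gave 415 to 463, and the split of higher against lower in B went from 237 and 180 to 180 and 242 with total counts and 311 and 152 with TMM over all genes. The median ratio of all genes moved by less than 0.01 on the log2 scale under every scaling.

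Ratios of TPM depended on the length. Adar to Adarb1 was 6.15 with the exon union, 4.99 with the longest transcript, 7.73 with the principal transcript and 7.39 without opposite-strand overlaps. Ilf2 to Zfr was 1.06, and then 2.35, 3.67 and 1.10. Zfr to Strbp was 3.59, and 3.85 with either transcript length, which were equal within each of these genes. Leaving out the overlaps kept 6 of the 8 genes at their place in the order. Leaving out 1 library gave 5.90 to 6.40 for Adar to Adarb1, 4.43 to 4.81 for Stau1 to Stau2, 1.05 to 1.06 for Ilf2 to Zfr and 3.55 to 3.64 for Zfr to Strbp.

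The planned addition of reads from all genes with a match of 90% over 100 bases was not run, since Ilf2 matched 2228 such genes and Strbp 690. A narrower rule, which asks the match to cover 50% of the other gene and was chosen after the data were seen, kept the order and moved none of these 4 ratios by more than the spread between libraries. Depth limits the ratios of Adarb1 and Stau2 most, and the 2 libraries limit every spread.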

Other observations

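Outside the 8 genes, Dhx30 and Eif2ak2 were singled out among the genes with a double-stranded RNA binding domain after their values were seen. Dhx30, a helicase gene with such a domain that acts in mitochondrial ribosome assembly, was counted with 79 reads in A and 104 in B, at 0.648 ± 0.0465 TPM (SD, n = 2), against 160 TPM for Dhx9. With the authors' gene models not given in the sources used here, whether this low count is the level of the gene or of the part of it that was counted is not settled. Mrpl44, a mitochondrial ribosomal protein gene with the same domain, was the only called gene among the 14 tested in that list by the exact binomial test. It had 1211 and 1537 reads in A and B, and its log2 ratio was -0.18 (adjusted exact binomial p = 0.0491). The call was lost under 6 of 8 alternatives, with adjusted p between 0.0382 and 1. Eif2ak2, the interferon-induced kinase that binds duplex RNA, had 873 and 1429 reads, a ratio of 0.19 and an adjusted exact binomial p of 0.0855.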
